A study of Mus musculus with 6 samples.

Results

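The genes described here are 10 marker genes of the renal collecting duct, chosen by their symbols from the 46095 genes of the count table and compared between both genotypes of the study. Of these, 5 are genes of principal cells (Aqp2, Aqp3, Avpr2, Scnn1b and Scnn1g) and 5 are genes of intercalated cells (Atp6v1b1, Slc4a1, Foxi1, Slc26a4 and Atp6v0d2). All 10 had enough counts to be among the 14611 genes tested.

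The collecting duct is the last segment of the renal tubule, where the final volume, salt content and acidity of the urine are set. Principal cells take up water through aquaporins under the control of vasopressin and take up sodium through the epithelial sodium channel ENaC. Intercalated cells, which depend on the transcription factor Foxi1, secrete acid or bicarbonate with the vacuolar proton pump (V-ATPase) and with chloride and bicarbonate exchangers.

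RNA was sequenced from primary renal tubular epithelial cells (PTECs) freshly isolated from mice of 10 weeks of age, 3 libraries with the label VHL-KO (replicates 1, 2 and 4) and 3 with the label VHL-KO;SETD2-KO (replicates 2, 3 and 4), here also called double-KO. In every mouse the Ksp-Cre transgene, which is driven by the promoter of the cadherin gene Cdh16, deleted floxed VHL, and in the double-KO mice it deleted floxed Setd2 as well. Both groups therefore lack VHL by design, no library from a wild-type mouse enters the comparison, and deletion is limited to cells in which that promoter is or was active. The comparison asks how the transcripts of VHL-deleted tubular cells differ when Setd2, which encodes a histone H3 lysine methyltransferase, is deleted too.

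Libraries held 11168552 to 17883466 counts, so that 3 counts, taken as the smallest detectable signal, corresponded to 0.159 to 0.281 CPM (counts scaled to one common library size, with the TMM factor of each library), a floor that covers counting error only. Counts over the whole Setd2 gene did not separate the genotypes (log2 fold change 0.52, edgeR adjusted p = 0.787), and the lowest value, 132 counts, was in the library labelled VHL-KO replicate 4. Setd2 was there at 0.170 times the mean of the other VHL-KO libraries. Its GC content of 44.28% places it in the quintile of genes with the lowest GC content. The median log2 difference of that quintile in this library was -2.33, as described below. The part of base composition in the low Setd2 count was not tested. Whole-gene counts do not show whether an exon was deleted, so genotypes are given as labelled. Proximal tubule markers had the highest summed level of the marker lists examined in every library (10853 to 34748 CPM), but podocyte markers (1437 to 4836 CPM) and endothelial markers (1175 to 3952 CPM) were present too, so the samples also held RNA of other kidney cells. The library labelled VHL-KO replicate 4 stood apart, with 11.3% of its counts on mitochondrially encoded genes against 25.9% to 36.4% in the others. Xist, an RNA of cells with an inactive X chromosome and so of female cells, reached 11704 counts in the library labelled double-KO replicate 3 and at most 4 counts elsewhere. The study used mice of both sexes and does not state the sex of the mice behind these libraries. The part of sex in the values of double-KO replicate 3 was not tested. The plot of fold changes also gives the 10 genes without VHL-KO replicate 4, and without both VHL-KO replicate 4 and double-KO replicate 3.

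Stretches of promoter are shown for 4 genes, Aqp2 because it had the widest range of levels, Avpr2 and Atp6v1b1 because they held the core of the forkhead motif bound by factors of the Foxi1 family, and Slc26a4 because it was 1 of 2 genes whose groups did not overlap. Each is the 250 bases before the transcription start in RefSeq (GRCm38.p6), written 5′ to 3′ on the strand of the gene, with motif matches in capitals. The motifs searched on both strands were the forkhead core TGTTTA and the core TGACG of the cyclic AMP response element, since vasopressin acts on principal cells through cyclic AMP.
Aqp2, chr15:99578806-99579055, plus strand: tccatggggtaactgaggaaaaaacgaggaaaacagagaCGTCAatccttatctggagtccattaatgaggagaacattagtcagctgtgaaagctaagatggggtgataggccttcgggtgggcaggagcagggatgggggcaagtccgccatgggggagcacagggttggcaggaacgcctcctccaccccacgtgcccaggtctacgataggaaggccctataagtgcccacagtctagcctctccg
Avpr2, chrX:73891852-73892101, plus strand: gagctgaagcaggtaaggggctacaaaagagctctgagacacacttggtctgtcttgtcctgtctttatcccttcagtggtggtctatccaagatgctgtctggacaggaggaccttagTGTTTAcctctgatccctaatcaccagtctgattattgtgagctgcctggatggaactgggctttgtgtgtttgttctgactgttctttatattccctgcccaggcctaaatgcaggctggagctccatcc
Atp6v1b1, chr6:83742767-83743016, plus strand: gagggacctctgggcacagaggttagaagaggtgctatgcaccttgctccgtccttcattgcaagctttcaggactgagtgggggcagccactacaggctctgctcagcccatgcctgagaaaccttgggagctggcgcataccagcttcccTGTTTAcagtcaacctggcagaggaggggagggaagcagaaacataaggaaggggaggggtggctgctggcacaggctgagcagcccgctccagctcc
Slc26a4, chr12:31559985-31560234, minus strand: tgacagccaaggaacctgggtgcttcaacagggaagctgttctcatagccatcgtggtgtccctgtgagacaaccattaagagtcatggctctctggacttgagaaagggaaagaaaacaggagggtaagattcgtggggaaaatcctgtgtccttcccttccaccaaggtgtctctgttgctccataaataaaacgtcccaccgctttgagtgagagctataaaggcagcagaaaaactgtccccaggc
The TGACG core was found in Aqp2 alone of the 8 genes with a promoter entry, on the minus strand, so that its complement stands in the sequence. The forkhead core was found in Avpr2 and Atp6v1b1 and in none of the other 6. Over all 32851 promoters of this length, 12.03% held the forkhead core and 17.8% held TGACG. These matches describe letters in a window and no binding was measured.

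No collecting duct gene differed between the genotypes at an adjusted p under 0.05. The 5 intercalated cell genes were all higher on average in the double-KO libraries, with a median log2 fold change of 1.47, and Slc26a4 and Atp6v0d2 passed the unadjusted threshold. The 5 principal cell genes pointed both ways, from -1.86 for Aqp2 to 1.5 for Scnn1g, with a median of -0.42. The median over all tested genes was 0.01. By edgeR's quasi-likelihood test, 0 of the 10 genes passed an adjusted p under 0.05 with a change of at least 1.5-fold, against 0.00684% of the genes tested. Under the unadjusted threshold (p under 0.05 and the same fold), 2 of 10 passed, against 7.33% of the genes tested. Both were higher, where 2.65% of the genes tested were, and 0 were lower, where 4.68% were. With no filter on low counts, 4 of the 10 passed upwards (Scnn1g, Foxi1, Slc26a4 and Atp6v0d2), against 2.5% of the genes tested, and 3 of the 7 with a p in DESeq2 did (Foxi1, Slc26a4 and Atp6v0d2), against 2.86%. Neither Slc26a4 nor Atp6v0d2 passed without VHL-KO replicate 1 or without double-KO replicate 3, and Slc26a4 did not pass without VHL-KO replicate 4 or double-KO replicate 4. No cause of these differences was tested, and because bulk RNA was sequenced, fewer cells of a type and less RNA per cell cannot be told apart.

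**Figure D1:**
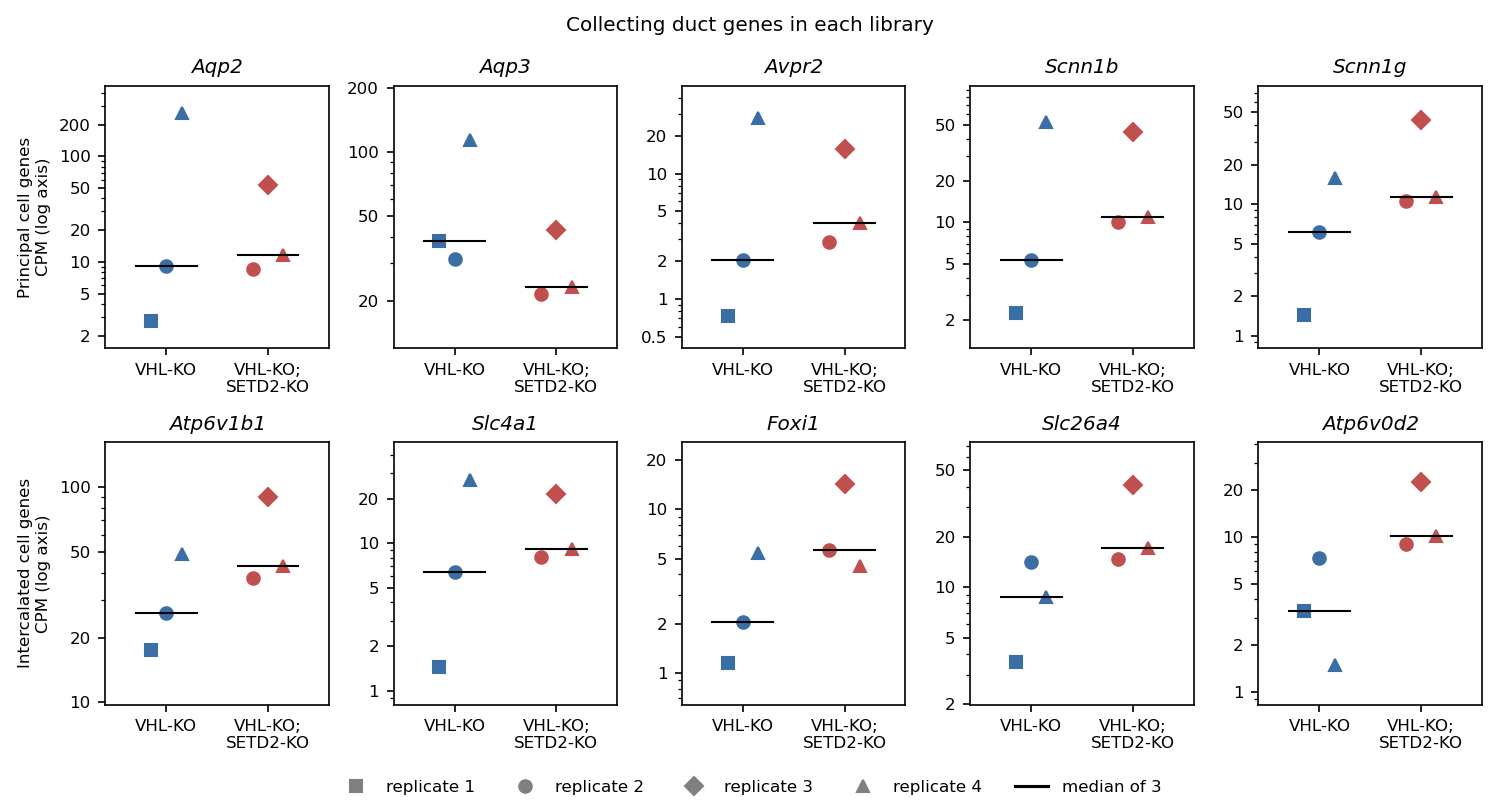
Level of each collecting duct gene in each library in CPM on a log axis, with principal cell genes in the upper row and intercalated cell genes in the lower row. Marker shapes give the replicate number and bars the median of 3 libraries. The library labelled VHL-KO replicate 4 was the highest of the 6 for Aqp2 at 257.7 CPM and the lowest for Atp6v0d2 at 1.5 CPM, and the library labelled double-KO replicate 3 was the highest of its group for each of the 10 genes.

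Aqp2 encodes the water channel that vasopressin moves to the apical membrane of principal cells (chromosome 15, 99579055 to 99584547, GRCm38, plus strand). Its level was 2.73, 9.07 and 257.7 CPM in VHL-KO replicates 1, 2 and 4, and 8.50, 53.9 and 11.6 CPM in double-KO replicates 2, 3 and 4. A single VHL-KO library was 4.78 times as high as the next highest library, and the other VHL-KO libraries were among the 3 lowest of the 6, so the groups overlapped. The mean was 89.8 ± 145.4 CPM (SD, n = 3) in VHL-KO and 24.7 ± 25.4 CPM (SD, n = 3) in double-KO libraries. The log2 fold change was -1.86 with a standard error of 1.48 (edgeR adjusted p = 0.693). Without the library labelled VHL-KO replicate 4 its sign turned, to 2.09 (edgeR adjusted p = 0.293).

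Aqp3 encodes the basolateral water and glycerol channel through which water leaves the principal cell (chromosome 4, 41092722 to 41098183, minus strand). It was at 38.3, 31.5 and 113.6 CPM in VHL-KO replicates 1, 2 and 4 and at 21.5, 43.1 and 23.2 CPM in double-KO replicates 2, 3 and 4. It was the only one of the 10 genes whose values in VHL-KO replicates 1 and 2 were both above those in double-KO replicates 2 and 4. The log2 fold change was -1.06 with a standard error of 0.59 (edgeR adjusted p = 0.625), and it was -0.26 without VHL-KO replicate 4.

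Avpr2 encodes the vasopressin V2 receptor, which acts through cyclic AMP on the water channels (chromosome X, 73892102 to 73895502, plus strand). Its values were 0.73, 2.04 and 27.8 CPM in VHL-KO replicates 1, 2 and 4 and 2.87, 15.8 and 4.01 CPM in double-KO replicates 2, 3 and 4. As for Aqp2, the highest and the lowest library carried the same label, and the log2 fold change of -0.42 had a standard error of 1.22 (edgeR adjusted p = 0.909). Without VHL-KO replicate 4 it was 2.49 (adjusted p = 0.224), and all double-KO values were then above the VHL-KO values. Avpr2 overlaps L1cam and Arhgap4 on the opposite strand, and use of strand in counting is not given in the sources used here, so reads of these genes could have been counted for it.

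Scnn1b and Scnn1g encode the beta and gamma subunits of ENaC and neighbour each other on chromosome 7, where Scnn1g lies at 121734479 to 121768475 and Scnn1b at 121865038 to 121918514, both on the plus strand. Scnn1b was at 2.24, 5.37 and 53.1 CPM in VHL-KO replicates 1, 2 and 4 and at 9.99, 44.5 and 10.9 CPM in double-KO replicates 2, 3 and 4. Scnn1g was at 1.45, 6.20 and 15.8 CPM in the same VHL-KO libraries and at 10.5, 44.0 and 11.4 CPM in the same double-KO libraries. Both subunits were lowest in VHL-KO replicate 1, but VHL-KO replicate 4 had the highest Scnn1b value of the series while its Scnn1g value was 0.359 times the highest of the other libraries. The log2 fold change was 0.11 with a standard error of 1.11 for Scnn1b (edgeR adjusted p = 0.978) and 1.5 with a standard error of 0.89 for Scnn1g (edgeR adjusted p = 0.627). Without VHL-KO replicate 4 they were nearly the same, 2.54 and 2.57 (edgeR adjusted p = 0.188 and 0.209), with no overlap between the groups for either gene. Scnn1b overlaps Cog7 on the opposite strand.

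The balance among the ENaC subunits was also compared, in CPM per kilobase of the longest protein-coding transcript, a scale that corrects for transcript length but not for GC content. Scnn1g made up 7.79%, 14.8% and 8.56% of the alpha, beta and gamma total in VHL-KO replicates 1, 2 and 4, and 20.8%, 21.1% and 18.4% in double-KO replicates 2, 3 and 4. The gamma share was thus higher in each double-KO library than in any VHL-KO library, also where the levels themselves overlapped. The means were 10.4% ± 3.82 (SD, n = 3) and 20.1% ± 1.5 (SD, n = 3), with p = 0.1 in a two-sided exact permutation test, the smallest p that 3 against 3 libraries allow, and 0.233 after adjustment over the 7 subunit measures compared. The alpha subunit Scnn1a held 53.1% to 60.4% of the total in double-KO and 56.7% to 77.7% in VHL-KO libraries, and these ranges overlapped.

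Atp6v1b1 encodes the B1 subunit of the V-ATPase, the isoform of intercalated cells (chromosome 6, 83742990 to 83758855, plus strand). It was at 17.6, 26.1 and 48.9 CPM in VHL-KO replicates 1, 2 and 4 and at 37.8, 89.7 and 42.9 CPM in double-KO replicates 2, 3 and 4. It was the most abundant of the intercalated cell genes per kilobase, with 15.4 ± 8.11 (SD, n = 3) CPM per kilobase in VHL-KO and 28.4 ± 14.3 (SD, n = 3) in double-KO libraries. The log2 fold change was 0.88 with a standard error of 0.54 (edgeR adjusted p = 0.629), and the groups overlapped through VHL-KO replicate 4 alone.

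Atp6v0d2 encodes the d2 subunit of the membrane sector of the same pump (chromosome 4, 19876841 to 19922605, minus strand). It was at 3.33, 7.31 and 1.5 CPM in VHL-KO replicates 1, 2 and 4 and at 9.03, 22.6 and 10.2 CPM in double-KO replicates 2, 3 and 4. Every double-KO library was above every VHL-KO library, and it was the only one of the 10 genes that was lowest in VHL-KO replicate 4. The mean was 4.05 ± 2.97 CPM (SD, n = 3) against 13.9 ± 7.55 CPM (SD, n = 3), a log2 fold change of 1.79 with a standard error of 0.66 and a 95% interval of 0.27 to 3.30. It passed the unadjusted threshold but not the adjusted one (edgeR adjusted p = 0.625).

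Foxi1, the transcription factor that intercalated cells need (chromosome 11, 34204338 to 34208089, minus strand), was the least abundant of the 10 genes in mean CPM. It was at 1.15, 2.04 and 5.42 CPM in VHL-KO replicates 1, 2 and 4, from 19, 22 and 58 counts, and at 5.63, 14.3 and 4.52 CPM in double-KO replicates 2, 3 and 4, from 106, 254 and 72 counts. Only the value in VHL-KO replicate 4 reached the range of the double-KO libraries. The log2 fold change was 1.51 with a 95% interval of -0.13 to 3.16 (edgeR adjusted p = 0.625).

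Slc26a4 encodes pendrin, the apical chloride and bicarbonate exchanger of bicarbonate-secreting intercalated cells (chromosome 12, 31519827 to 31559969, minus strand). It was at 3.58, 14.1 and 8.70 CPM in VHL-KO replicates 1, 2 and 4 and at 14.7, 40.9 and 17.2 CPM in double-KO replicates 2, 3 and 4. The groups did not overlap, though double-KO replicate 2 was only 1.04 times as high as VHL-KO replicate 2. The mean was 8.78 ± 5.24 CPM (SD, n = 3) against 24.2 ± 14.5 CPM (SD, n = 3), a log2 fold change of 1.47 with a 95% interval of 0.04 to 2.90. It passed the unadjusted threshold only (edgeR adjusted p = 0.625).

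Slc4a1 encodes the anion exchanger AE1, which lies in the basolateral membrane of acid-secreting intercalated cells and is also a major protein of red cells (chromosome 11, 102348824 to 102366203, minus strand). It was at 1.45, 6.38 and 26.9 CPM in VHL-KO replicates 1, 2 and 4 and at 8.13, 21.5 and 9.16 CPM in double-KO replicates 2, 3 and 4. It was the only intercalated cell gene with its highest level in VHL-KO replicate 4, and the groups overlapped. The log2 fold change was 0.16 with a standard error of 0.91 (edgeR adjusted p = 0.954). Of 10 erythroid markers, 5 were tested and 0 passed the unadjusted threshold. Their summed level was 534 to 676 CPM in 5 libraries and 1884 CPM in VHL-KO replicate 4, the library in which Slc4a1 was also highest. The markers Rhag and Kel had at most 2 counts in any library. In double-KO replicate 3, where Slc4a1 was 2.49 times the mean of the other libraries of its label, the erythroid sum was 558 CPM, within the range of the others.

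Counted over the 10 genes, the groups did not overlap for 2 genes, both higher in double-KO libraries, against 9.62% of the genes tested, and 0 were lower without overlap, against 11%. Per kilobase, the 5 principal cell genes in VHL-KO libraries had mean levels of 2.61 (Scnn1g) to 63.3 (Aqp2) CPM per kilobase, and the order below Aqp2 was Aqp3, Scnn1b, Avpr2 and Scnn1g. In double-KO libraries it was Aqp2, Aqp3, Scnn1b, Scnn1g and Avpr2, from 17.4 to 2.72 CPM per kilobase. The first place of Aqp2 rested on 1 library in each group. Aqp3 was above Aqp2 per kilobase in VHL-KO replicates 1 and 2 and in double-KO replicates 2 and 4. Without VHL-KO replicate 4, the order of VHL-KO means was Aqp3, Aqp2, Scnn1b, Scnn1g and Avpr2, from 19.8 to 0.496 CPM per kilobase. The order of double-KO means was the same without double-KO replicate 3, from 12.7 to 1.24 CPM per kilobase. These means without 1 library were taken after the values were seen. Of the neighbours in the orders over 3 libraries, only Aqp3 and Scnn1b in VHL-KO libraries (34.7 ± 25.8 against 8.17 ± 11.5, SD, n = 3) differed by more than the SDs of both. In VHL-KO libraries the order of the intercalated cell genes was Atp6v1b1, Slc26a4, Slc4a1, Atp6v0d2 and Foxi1, from 15.4 to 1.22 CPM per kilobase. In double-KO libraries the order of the intercalated cell genes was Atp6v1b1, Slc26a4, Atp6v0d2, Foxi1 and Slc4a1, from 28.4 to 2.85 CPM per kilobase. Without VHL-KO replicate 4, Atp6v0d2 stood above Slc4a1 in VHL-KO libraries (2.10 against 0.862 CPM per kilobase), and the double-KO order was the same without double-KO replicate 3. In either order over 3 libraries only the lead of Atp6v1b1 over Slc26a4 was larger than the SDs of both (28.4 ± 14.3 against 7.88 ± 4.70 in double-KO libraries, SD, n = 3).

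Within each label 1 library departed from the others, in a different way in each group. The library labelled double-KO replicate 3 was above the mean of the other libraries of its label for each of the 10 genes, by 1.93 times (Aqp3) to 5.36 times (Aqp2). The library labelled VHL-KO replicate 4 ranged from 0.281 times (Atp6v0d2) to 43.7 times (Aqp2) the mean of the other VHL-KO libraries. Summed CPM of the principal cell genes over summed CPM of the intercalated cell genes was 1.68 and 0.970 in VHL-KO replicates 1 and 2 but 5.12 in VHL-KO replicate 4, and it was 0.710, 1.07 and 0.729 in double-KO replicates 2, 3 and 4. Genes of both cell types were therefore high together in double-KO replicate 3. In VHL-KO replicate 4, Aqp2 alone gave 257.7 of the 468 CPM of the principal cell genes. Relative to the other VHL-KO libraries, Aqp2, Avpr2 and Scnn1b there exceeded every intercalated cell gene of the 10. Scnn1g (4.13 times) was below Slc4a1 (6.87 times), and Aqp3 (3.25 times) was also below Foxi1 (3.40 times). Other genes of each cell type went both ways. Scnn1a (principal) was at 4.78 times and Kcnj1 at 0.269 times, Rhbg (intercalated) at 15.6 times and Slc26a7 at 0.139 times.

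Leaving out VHL-KO replicate 4, the median log2 fold change was 2.49 for the principal and 1.48 for the intercalated cell genes, against 0.04 over all genes. Of the 10 genes, 6 passed the unadjusted threshold, all higher (Avpr2, Scnn1b, Scnn1g, Atp6v1b1, Foxi1 and Atp6v0d2), against 8.29% of the genes tested, and 0 passed the adjusted one in edgeR. The double-KO values lay above the VHL-KO values without overlap for 8 genes, all but Aqp2 and Aqp3, against 20.4% of the genes tested. DESeq2 on the same 5 libraries gave 9 genes at an unadjusted and 5 at an adjusted p under 0.05 (Avpr2, Scnn1b, Scnn1g, Atp6v1b1 and Foxi1), all higher, where 9.5% and 3.56% of the genes tested were. In edgeR the count of adjusted calls among the 10 genes was 0 with and without this library, and DESeq2 on all 6 libraries gave no adjusted p for any of them, so the tools differed on these 5 libraries.

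Leaving out both VHL-KO replicate 4 and double-KO replicate 3, which leaves 2 libraries per label, 4 genes passed the adjusted threshold in edgeR, against 8.9% that passed upwards and 7.89% downwards over all genes. Scnn1b rose by 1.5 (adjusted p = 0.0394), Atp6v1b1 by 0.90 (adjusted p = 0.0244) and Foxi1 by 1.70 (adjusted p = 0.0250) on the log2 scale. Aqp3 fell by 0.65 on that scale (adjusted p = 0.0250). The 5 intercalated cell genes, Avpr2 and both ENaC subunits were higher without overlap, against 32.7% of the genes tested, and Aqp3 was lower without overlap, against 32.5%. The choice to leave out this pair of libraries followed from seeing the values.

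**Figure D2:**
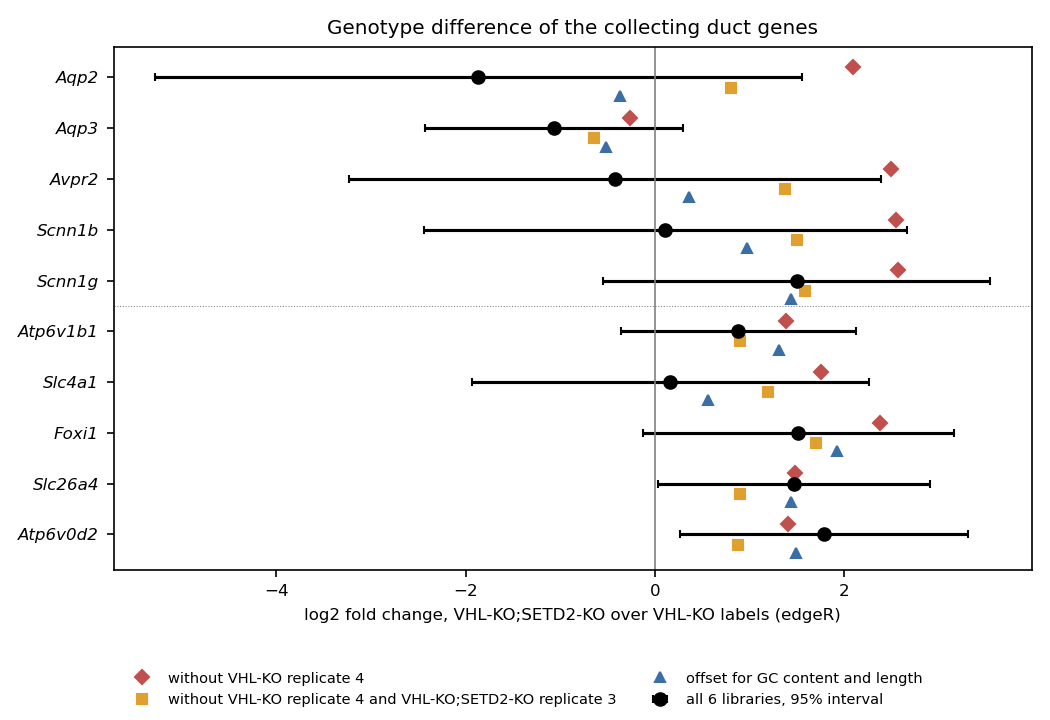
Log2 fold change of each collecting duct gene, double-KO over VHL-KO, by edgeR, with black points and bars for all 6 libraries and their 95% intervals, red diamonds without VHL-KO replicate 4, yellow squares without that library and double-KO replicate 3, and blue triangles with an offset for GC content and transcript length. The intercalated cell genes in the lower part lie above 0 in each of the 4 fits, whereas Aqp2 moves from -1.86 to 2.09 when 1 library is left out. In fits not shown Slc4a1 was negative, at -0.40 without double-KO replicate 3 and -0.34 without VHL-KO replicate 1.

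Part of the departure of VHL-KO replicate 4 followed the base composition of transcripts. Over the 14133 tested genes with a known transcript, the median log2 difference between this library and the mean of the other VHL-KO libraries went from -2.33 in the quintile of genes with the lowest GC content to 1.59 in that with the highest, and from 1.13 in the quintile with the shortest transcripts to -1.43 in that with the longest. The same difference for double-KO replicate 3 went only from -0.13 to 0.16 with GC content. Among the collecting duct genes, Atp6v0d2 has the lowest GC content (41.6%) and differed by -1.64, and Aqp2 has the highest (63.2%) and differed by 5.65. After an offset for GC content and length the difference was 0.25 for Atp6v0d2, 0.13 for Atp6v1b1 and 0.36 for Slc26a4. It was 0.63 for Aqp3 and 0.94 for Foxi1. It was still 3.65 for Aqp2, 3.33 for Avpr2, 2.69 for Scnn1b, 2.43 for Scnn1g and 2.32 for Slc4a1, so it was positive for every collecting duct gene. With GC content and length taken into account, the low value of Atp6v0d2 in this library was thus gone, and the high values of 4 principal cell genes and of Slc4a1 were smaller but present, apart from that of Scnn1g, which was not smaller.

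**Figure D3:**
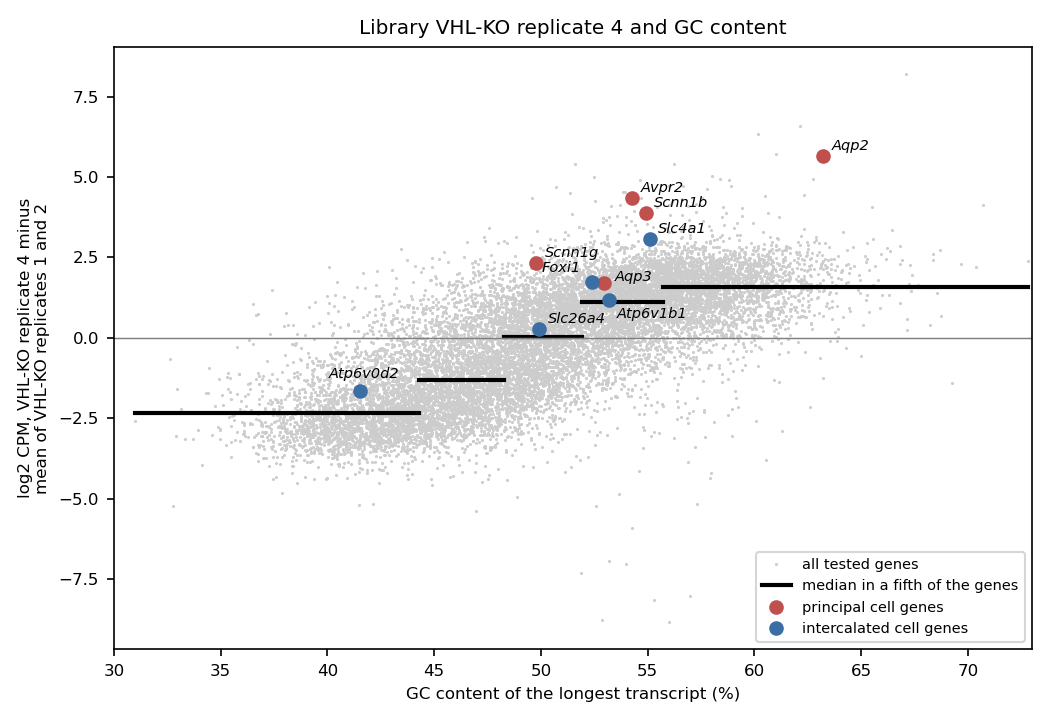
Log2 CPM in the library labelled VHL-KO replicate 4 minus the mean of VHL-KO replicates 1 and 2, against the GC content of the longest transcript in percent, for all tested genes (grey), with medians in quintiles of the genes (black bars) and the collecting duct genes named. The medians climb from -2.33 to 1.59. Each of the 10 collecting duct genes lies above the median of its quintile, and Aqp2, Avpr2, Scnn1b, Scnn1g and Slc4a1 lie farthest above it.

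With that offset in the model, the intercalated cell genes kept a median log2 fold change of 1.44 and 4 of 5 passed the unadjusted threshold, against 6.12% upwards over all genes. These were Atp6v1b1 at 1.31, Foxi1 at 1.92, Slc26a4 at 1.44 and Atp6v0d2 at 1.49, with edgeR adjusted p-values of 0.191 to 0.287. The median of the principal cell genes was 0.36 and 0 of 5 passed. Aqp2 was at -0.37 and Avpr2 at 0.36, both closer to 0 than without the offset.

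The other genes of the same cells were read from fixed lists. Of 15 other principal cell genes, 14 were tested, 1 passed the unadjusted threshold upwards and 1 downwards, against 2.65% higher and 4.68% lower over all genes, and the median log2 fold change was 0.59. The higher one was Kcnj1, the potassium channel ROMK, at 62.4, 84.9 and 19.8 CPM in VHL-KO replicates 1, 2 and 4 and 113.7, 273.5 and 131.1 CPM in double-KO replicates 2, 3 and 4 (log2 fold change 1.63, edgeR adjusted p = 0.625). The lower one was Prss8, the ENaC-activating protease prostasin, at 200.5, 197.8 and 680.5 CPM against 88.9, 151.5 and 111.7 CPM (log2 fold change -1.61, edgeR adjusted p = 0.625). Both kept their direction without overlap when VHL-KO replicate 4 was left out, at 1.23 for Kcnj1 and -0.77 for Prss8. Kcnj1 did not pass without VHL-KO replicate 1 or double-KO replicate 3, nor Prss8 without double-KO replicate 2 or 4. Kcnj1 is also a gene of the thick ascending limb and Prss8 of other tubule segments, so neither is particular to principal cells. The kinase gene Sgk1 and Prss8 had the highest mean levels of this list, and Sgk1 had a log2 fold change of 0.90 (edgeR adjusted p = 0.630).

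Hsd11b2, the enzyme that shields the mineralocorticoid receptor of principal cells from glucocorticoids, varied like Aqp2, with 2.49, 10.4 and 129.4 CPM in VHL-KO replicates 1, 2 and 4 and 11.7, 81.4 and 12.6 CPM in double-KO replicates 2, 3 and 4. The mineralocorticoid receptor gene Nr3c2 itself was at 8.73, 7.86 and 2.06 CPM and at 11.4, 11.2 and 12.4 CPM in the same libraries, without overlap between the labels and without the peak in double-KO replicate 3. Its log2 fold change was 0.90 (edgeR adjusted p = 0.629). Hsd11b2, Nr3c2, Slc26a7, Rhbg and Aqp6 fall outside the rule for named genes, as do the proximal markers named below. All were picked with their values in view.

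Of 17 other intercalated cell genes, all tested, 3 passed the unadjusted threshold upwards and 0 downwards, against 2.65% and 4.68% over all genes, with a median log2 fold change of 0.86. Without double-KO replicate 3, 0 of 17 passed in either direction, against 2.37% upwards and 2.2% downwards over all genes, and the median was -0.0013. They were Atp6v1g3, the intercalated cell G subunit of the proton pump, the receptor gene Kit and the oxoglutarate receptor gene Oxgr1. Atp6v1g3 was at 3.52, 8.33 and 2.71 CPM in VHL-KO replicates 1, 2 and 4 and at 14.5, 24.8 and 11.8 CPM in double-KO replicates 2, 3 and 4 (log2 fold change 1.81, edgeR adjusted p = 0.625). Oxgr1 was at 1.88, 5.09 and 1.12 CPM against 7.65, 21.3 and 9.53 CPM (log2 fold change 2.25, edgeR adjusted p = 0.625), and Kit had a log2 fold change of 1.56. In all 3 genes each double-KO library was above each VHL-KO library, but none of them passed without double-KO replicate 3, and Kit did not pass without VHL-KO replicate 1 or 2 either. The carbonic anhydrase gene Car2 and Atp6v0a4, which had the highest mean levels of this list and are also used by other segments, had log2 fold changes of -0.04 and -0.31. Slc26a7, another anion exchanger gene, was the exception to the high values in double-KO replicate 3, with 4.05 CPM there against 18.1 and 12.8 CPM in double-KO replicates 2 and 4.

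Without VHL-KO replicate 4, 9 of these 17 genes passed the unadjusted threshold upwards and 0 downwards, with a median of 1.65, and 11 were higher without overlap. Among the other principal cell genes 4 of 14 passed upwards and 1 downwards, with a median of 0.58, and 6 were higher and 1 was lower without overlap. Over all genes, 8.29% passed upwards and 7.14% downwards in this comparison, and 20.4% were higher and 21.5% lower without overlap.

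**Figure D4:**
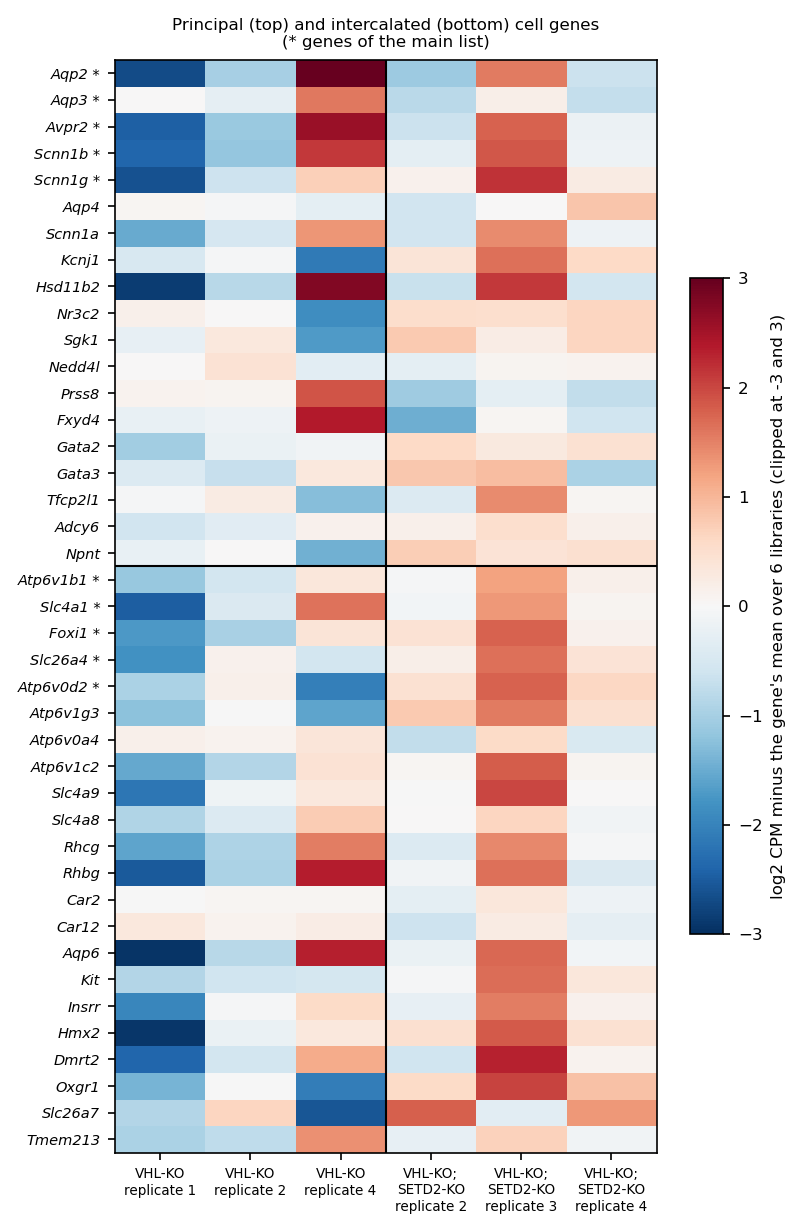
Log2 CPM of principal (top) and intercalated (bottom) cell genes in each library relative to the mean of the gene over 6 libraries, clipped at -3 and 3, with the 10 collecting duct genes starred. VHL-KO replicate 1 is low and double-KO replicate 3 high for most genes. VHL-KO replicate 4 is high for Aqp2, Avpr2, Hsd11b2, Slc4a1, Rhbg and Aqp6 and low for Kcnj1, Nr3c2, Atp6v0d2, Oxgr1 and Slc26a7. After the offset for GC content and length, which is not shown here, the log2 difference from the other VHL-KO libraries was -0.33 for Kcnj1 and -0.64 for Nr3c2. It was 0.25 for Atp6v0d2, 0.23 for Oxgr1 and 0.25 for Slc26a7.

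The V-ATPase subunits that every cell uses gave no calls in the main fit. Of 16 ubiquitous subunit genes, 0 passed the unadjusted threshold in either direction, near the shares over all genes (2.65% higher and 4.68% lower). The log2 fold change was negative for 12, and the median was -0.40, or -0.08 without VHL-KO replicate 4. With the offset for GC content and length 15 were negative, the median was -0.21 and 1 passed downwards (9.06% of all genes). Without VHL-KO replicate 4, 5 were lower and 1 was higher without overlap, against 21.5% and 20.4% of all genes. The share of an isoform among its paralogs was compared within each library. On the CPM per kilobase scale, Atp6v1b1 made up 6.65%, 11.7% and 10.2% of the B subunits (Atp6v1b1 and Atp6v1b2) in VHL-KO replicates 1, 2 and 4, and 20.01%, 34.1% and 21.1% in double-KO replicates 2, 3 and 4. Atp6v0d2 made up 2.78%, 6.62% and 0.32% of the d subunits (Atp6v0d2 and Atp6v0d1) in the VHL-KO and 8.99%, 15.4% and 9.96% in the double-KO libraries. The value of 0.32% belongs to VHL-KO replicate 4, in which the low level of Atp6v0d2 was gone after the offset for GC content and length, and the share itself is not corrected for GC content (41.6% for Atp6v0d2 and 53.4% for Atp6v0d1). Without this library the mean VHL-KO share of Atp6v0d2 was 4.70% (n = 2), and both remaining shares were below those of all double-KO libraries. In both pairs each double-KO library had a larger share of the intercalated cell isoform than any VHL-KO library. The paralog Atp6v1b2 was itself lower without overlap, at 348.9, 279.7 and 609.5 CPM in the VHL-KO and 213.4, 244.8 and 226.6 CPM in the double-KO libraries, so both genes enter the difference in the B subunit share. The mean shares were 9.49% ± 2.57 against 25.1% ± 7.85 for Atp6v1b1 and 3.24% ± 3.18 against 11.4% ± 3.43 for Atp6v0d2 (SD, n = 3). The exact permutation p was 0.1 for each, the smallest possible here, and 0.233 after adjustment over the 7 measures. The share of Atp6v0a4 among the a1, a2 and a4 subunits did not separate the labels, at 62.3% to 72.1% in VHL-KO and 60.7% to 77.9% in double-KO libraries (exact permutation p = 0.9).

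**Figure D5:**
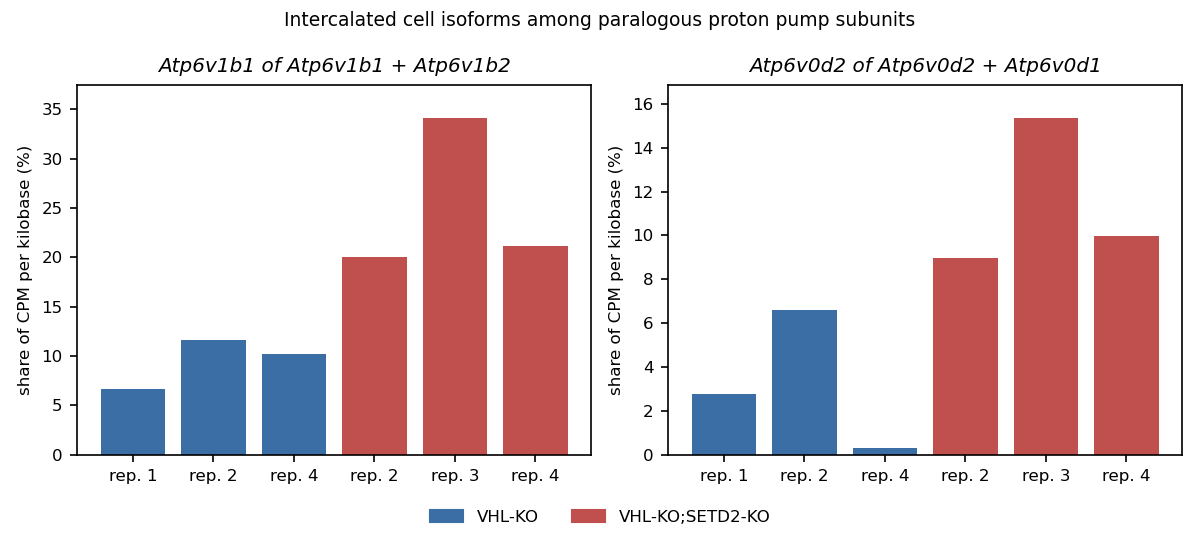
Share of the intercalated cell isoform in the summed CPM per kilobase of both paralogs, in percent, for the B subunits (left) and d subunits (right) of the V-ATPase, with 1 bar per library. The double-KO bars lie between 20.01% and 34.1% on the left and between 8.99% and 15.4% on the right, above all VHL-KO bars.

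Atp6v0d2 is also expressed by osteoclasts and some macrophages, so markers of these cells were read beside it. Of 10 macrophage markers, all tested, 0 passed the unadjusted threshold upwards and 2 downwards (C1qa and C1qb), against 2.65% and 4.68% over all genes, and their summed level was 139 to 378 CPM in VHL-KO and 99.5 to 311 CPM in double-KO libraries. It was lowest in double-KO replicate 3, where Atp6v0d2 was highest. Of 6 markers of osteoclast-like macrophages, 3 were tested, and 1 of them, Acp5, passed the unadjusted threshold downwards. Mmp12 had a log2 fold change of -0.83 and Ctsk one of 0.48, and neither passed. The summed level of these markers was 36.9, 44.8 and 164.3 CPM in VHL-KO replicates 1, 2 and 4. It was 21.6, 34.6 and 21.0 CPM in double-KO replicates 2, 3 and 4, so highest of its group in double-KO replicate 3, as Atp6v0d2 was. Most of this sum was Acp5, with a mean of 76.5 CPM in VHL-KO and 21.3 CPM in double-KO libraries. Mmp12 and Ctsk had group means of at most 2.90 and 2.35 CPM, so the sum mainly describes Acp5. The osteoclast fusion genes Ocstamp and Dcstamp had at most 9 and 3 counts in any library.

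Markers of 3 other tubule segments and of 2 other kidney cell types were read beside the collecting duct genes, where 2.65% of all genes tested passed the unadjusted threshold upwards and 4.68% downwards. Summed CPM of 6 distal convoluted tubule markers was 586, 742 and 1804 in VHL-KO replicates 1, 2 and 4 and 981, 2666 and 1087 in double-KO replicates 2, 3 and 4. Of these markers, 3 passed the unadjusted threshold upwards and 0 downwards. Only 1 passed upwards without double-KO replicate 3 (2.37% of all genes), and 1 with the offset for GC content and length (6.12%). Summed CPM of 10 proximal tubule markers was 34314, 31644 and 34748 in the VHL-KO and 13544, 10853 and 15042 in the double-KO libraries. Of these, 3 passed downwards and 0 upwards. The number downwards was 7 without VHL-KO replicate 4 (7.14% of all genes) and 7 with the offset (9.06%), and 2 without double-KO replicate 3 (2.2%). The sums of the 6 markers of the thick ascending limb overlapped between the labels, at 1669, 2410 and 3842 CPM in the VHL-KO and 1480, 3905 and 1862 CPM in the double-KO libraries. Of these markers 0 passed the threshold upwards and 1 downwards, the latter without overlap, and the median log2 fold change was 0.17. Without double-KO replicate 3 the median was -0.44, 5 of 6 were negative and 0 passed (2.37% of all genes upwards and 2.2% downwards). The sums of the thick limb and distal markers were highest, and that of the proximal markers lowest, in double-KO replicate 3, in which the 10 collecting duct genes were the highest of their group. The low proximal sum there rested on Kap, at 0.177 times the mean of the other double-KO libraries. Slc22a6 was at 0.664 times that mean. The remaining proximal markers were above it, from 1.16 (Lrp2) to 2.70 times (Slc5a12), so the proximal markers were not low as a set.

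Podocyte and endothelial markers had another pattern over the libraries. The 5 podocyte markers summed to 1437, 1928 and 2089 CPM in VHL-KO replicates 1, 2 and 4 and to 4836, 1971 and 4296 CPM in double-KO replicates 2, 3 and 4. All 5 had a positive log2 fold change, with a median of 1.09, and 3 of 5 passed the unadjusted threshold upwards, each without overlap between the groups. The 6 endothelial markers summed to 1400, 1631 and 1175 CPM in the VHL-KO and to 3952, 1296 and 3187 CPM in the double-KO libraries, with a median log2 fold change of 1.00 and 0 of 6 past the threshold in either direction. Without double-KO replicate 3, 4 of 5 podocyte and 4 of 6 endothelial markers passed upwards. Both sums were thus high in double-KO replicates 2 and 4, whereas in double-KO replicate 3 they lay within the VHL-KO range. The part of these segments and cell types in the differences of the collecting duct genes was not tested.

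The genes whose levels over the 6 libraries were most like the mean profile of each group of 5 were picked by the smallest root mean square difference of centred log2 CPM, among genes with a mean log2 CPM of at least 1. For the principal cell genes they included Wfdc2, Hhatl and Krt7, with differences of 0.218, 0.259 and 0.287 against 1.49 for the median gene. For the intercalated cell genes they were Sgsm1, Fam84a, Spink8, Cdh6 and Sall3, with 0.187 to 0.274 against 1.13 for the median gene. Within the groups, Aqp3 (1.06) was the gene farthest from the principal profile and Scnn1b (0.271) the nearest, while Atp6v0d2 (0.902) was the farthest from the intercalated profile and Slc26a4 (0.301) the nearest. With 6 points per gene that share library depth and composition, these distances are descriptions.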

How the data were processed

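PTECs of 6 mice, 3 per genotype label, were compared. The authors deposited raw read counts per gene symbol for each library, from directional libraries read as paired ends. The submitters' processing notes name HISAT2 2.0.4 and GRCm38. The counting program, the annotation and the use of strand are not given in the sources used here.

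Groups came from the sample labels. On the deposited counts, edgeR 4.0.16 in R 4.3.3 (TMM, filterByExpr, quasi-likelihood test, genotype label as the only factor) was fitted to all 14611 tested genes, with Benjamini-Hochberg adjustment over all of them. A gene passed at p under 0.05, adjusted or unadjusted, with a change of at least 1.5-fold. The study describes 3 mice per group, but the labels tie no library to an animal, so p-values measure the spread between these samples, which may be technical. Log2 CPM used a prior count of 2. GENCODE M21 (GRCm38) gave positions, the length of the longest transcript and its GC content, with a value for 96.7% of tested genes. Promoters came from RefSeq, and 8 of the 10 genes had an entry.

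Named genes were the 10 genes, other collecting duct and proton pump genes past the unadjusted threshold, the 2 with the highest mean per list, paralogs, markers for Slc4a1 and Atp6v0d2, and the genes nearest in profile, of which some are not reported here. The 10 genes and the lists were chosen with earlier results of these data known. DESeq2 1.42.0 and limma 3.58.1 were alternatives, and each tool was tested on simulated counts with 200 changed genes. All sample columns of the table were used (0 left out).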

Additional observations from a re-analysis of the deposited data

How the results depend on the processing

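In edgeR and in limma-voom, 0 of the 10 genes passed the adjusted threshold. The same held in edgeR with DESeq2's size factors, without a filter, with a minimum of 10 counts per library, with library sizes without the 20 highest genes or without mitochondrially encoded genes, the GC content and length offset, and with each library left out in turn. DESeq2 on all 6 libraries gave no adjusted p for any of them, and no p for Aqp2, Avpr2 and Scnn1b. The count was 4 without VHL-KO replicate 4 and double-KO replicate 3, and 5 with DESeq2 without VHL-KO replicate 4. These last settings and the offset were chosen after seeing the data.

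At the unadjusted threshold 2 passed. The count was 4 with no filter, 4 with the offset and 9 with DESeq2 without VHL-KO replicate 4, all higher. Over all genes 2.5%, 6.12% and 9.5% were higher in these settings. Without both libraries 7 passed, 6 of them higher. The unadjusted share over all genes is not given for that fit. The adjusted shares, 8.9% upwards and 7.89% downwards, belong to another threshold, so the unadjusted counts there cannot be set against them. With each library left out in turn the count of the 10 genes ranged from 0 to 6. It was 0 without VHL-KO replicate 1 or double-KO replicate 3 (2.37% of all genes higher in the latter). It was 1 without double-KO replicate 4 and 6 without VHL-KO replicate 4 (8.29% of all genes higher in the latter). No share over all genes is given without VHL-KO replicate 1 or double-KO replicate 4, so those counts have nothing to be set against. Of the other collecting duct genes 5 of 31 passed, 4 of them higher, and 9 of 32 did so with no filter (7 higher). The count was 9 with the offset (8 higher), 17 without both libraries (14 higher) and 18 with DESeq2 without VHL-KO replicate 4 (17 higher). It ranged from 1 to 14 with each library left out. The lowest count was without double-KO replicate 3 and the highest without VHL-KO replicate 4.

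The median log2 fold change of the principal cell genes ranged from -1.43 to 2.49 with each library left out (highest without VHL-KO replicate 4, where DESeq2 gave 2.47), and was 0.77 with limma-voom. That of the intercalated cell genes ranged from 0.85 to 1.74. Single genes turned sign. Aqp2 ranged from -3.13 to 2.09 with each library left out, and was 0.81 without both libraries and 2.06 with DESeq2 without VHL-KO replicate 4. Avpr2 ranged from -1.53 to 2.49, and was 0.77 with limma-voom, 1.37 without both libraries, 0.36 with the offset and 2.47 with DESeq2 without VHL-KO replicate 4. Scnn1b ranged from -0.93 to 2.54 and Slc4a1 from -0.40 to 1.76.

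Both labels have a replicate 2 and a replicate 4. Deviations of same-numbered libraries from their group means correlated at 0.17 for number 2 and -0.32 for number 4, and no source says that a number marks a shared litter or day, so the libraries share only a number. With the replicate number as a block, 0 of the 10 genes, 1 other collecting duct gene, 0 of 6 distal convoluted tubule markers and 0 of 10 proximal tubule markers passed the unadjusted threshold. The medians were -1.20 for principal and 0.52 for intercalated cell genes, Scnn1b was at -0.71 and Slc4a1 at -0.61. Numbers 1 and 3 occur under 1 label each, so in this fit the genotype difference rests on the libraries numbered 2 and 4 alone. Little is left to estimate the spread, so the low counts of calls cannot be read as a result about these genes. In VHL-KO replicate 1 depth limits Avpr2 and Foxi1 most, with 12 and 19 counts. In VHL-KO replicate 4 it limits Atp6v0d2 most, which had fewer counts there than Foxi1 had in VHL-KO replicate 1. The low d subunit share of Atp6v0d2 in that library rests on these few counts.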
